A study of Mus musculus with 24 samples.

Results

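The 46 genes described here serve the unfolded protein response of the endoplasmic reticulum (ER) and the stress response driven by the transcription factor ATF4, among 47480 genes in the count table. They were taken by name, and the list was chosen by what earlier work on these counts had shown, so the members' changes are described with that in view. They fall into 14 ER chaperones and folding enzymes, 6 genes of ER-associated degradation, 9 sensors and transcription factors, 9 amino acid genes of the ATF4 type and 8 other stress-linked genes, most of them secreted factors or ATF4 targets. Stanniocalcin 2 (Stc2) was selected on its measured log2 change with Dexa, which had opposite signs in control cells and in cells given siCop1. For that reason its Dexa and siCop1 values are given without a test, and every count of changed members below leaves it out. Derl3 had between 0 and 2 reads in each library and was not tested, so the counts run over 44 members, out of 14772 genes tested.

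The cells were wild-type mouse embryonic fibroblasts, sequenced as 24 poly(A) RNA libraries. All cells received a small interfering RNA, either the control siCTRL or siCop1 against the ubiquitin ligase subunit Cop1, and every culture had either the solvent DMSO or KL001, a compound known to stabilise cryptochrome proteins. Each of these 4 combinations was sampled without and with an agent labelled Dexa, which gave 8 groups of 3 libraries (siCTRL DMSO, siCTRL DMSO Dexa, siCTRL KL001, siCTRL KL001 Dexa, and the same with siCop1). The study asked how cryptochromes hold back the ubiquitin ligase that Cop1 forms with Cullin 4. The sources used here give no doses, exposure times or siRNA sequence, and there is no group without siRNA. The labels do not say that the 3 libraries of a group came from separate cultures, so p-values measure only the spread between these libraries, pooled over the 8 groups.

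Library totals ran from 21409988 to 27875023 counts. Cop1, listed under its older symbol Rfwd2, lay between 24.99 and 29.72 CPM (counts scaled to library size and composition) in the 12 siCTRL libraries and between 4.33 and 5.79 CPM in the 12 siCop1 libraries. Fkbp5, a known glucocorticoid receptor target, lay between 33.4 and 52.3 CPM without Dexa and between 584 and 727 CPM with it. All 9 fibroblast markers had reads, led by collagen genes, although Dcn and Lum stayed under 5 CPM. The 7 heart muscle markers summed to 0.155 to 0.894 CPM in every siCop1 library but to 16.2 to 78.9 CPM in 6 of the 12 siCTRL libraries, including all 3 of siCTRL DMSO. The other 6 siCTRL libraries had sums of 0.199 to 0.428 CPM. The 6 squamous epithelium markers summed to 20.1 to 85.4 CPM in siCop1 DMSO Dexa and 15.7 to 38.2 CPM in siCop1 KL001 Dexa. In the other groups these sums lay between 8.89 and 24.5 CPM. The part of squamous epithelium transcripts in the results was not tested.

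The ER folds secreted and membrane proteins, which fibroblasts make in quantity as collagen and matrix. When unfolded protein builds up, 3 sensors respond: IRE1 (Ern1) splices Xbp1 mRNA, ATF6 is cut to release a transcription factor, and PERK (Eif2ak3) phosphorylates eIF2α, which slows translation in general but favours that of ATF4. XBP1 and ATF6 chiefly raise chaperone and degradation genes, while ATF4, which also answers to amino acid shortage through the kinase GCN2, raises genes that make and import amino acids. Gene counts measure neither Xbp1 splicing nor the translation of Atf4.

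Per kilobase of exon, Calr (383 ± 8.87 CPM per kb, SD, n = 3, siCTRL DMSO), Pdia3 (353 ± 11 CPM per kb), Hsp90b1 (287 ± 8.16 CPM per kb), Atf4 (277 ± 5.72 CPM per kb) and Hspa5 (247 ± 6.63 CPM per kb) were the most abundant members. Calreticulin (Calr) binds nascent glycoproteins, Pdia3 forms their disulphide bonds, and Hspa5 encodes BiP, the main Hsp70 of the ER. Asns (136 ± 1.16 CPM per kb) led the amino acid genes, and Ern1 (3.92 ± 0.195 CPM per kb) was the lowest of the sensors. Fgf21 (1.89 ± 0.256 CPM per kb) and Gdf15 (1.47 ± 0.205 CPM per kb), both secreted stress hormones, were near the bottom of the list.

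Promoters of some members hold a known response element of either pathway arm, and matched stretches are shown here for members that the results below describe. RefSeq windows (build GRCm38.p6, 250 bases before to 50 after the start site) were at hand for 40 of the 46 members. The ER stress response element (ERSE), spelled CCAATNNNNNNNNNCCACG (its start is a CCAAT box) and bound by ATF6 with NF-Y, was searched on both strands. It was found in 9 members (22.5%), against 0.137% of 27025 genes, and 7 of the 12 chaperones with a window held it, as did the degradation genes Syvn1 and Derl3. Capitals mark the element, read on the strand of the gene, so a copy on the other strand appears as its reverse complement.
Hspa5: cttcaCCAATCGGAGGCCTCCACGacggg
Calr: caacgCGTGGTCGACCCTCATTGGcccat
Pdia6: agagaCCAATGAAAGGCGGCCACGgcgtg
Creld2: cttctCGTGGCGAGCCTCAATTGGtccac
These stretches lie upstream of the RefSeq start sites, at chr2:34772020-34772048, + strand, chr8:84847070-84847098, - strand, chr12:17266486-17266514, + strand, and chr15:88819515-88819543, + strand. The GENCODE span of Hspa5 begins before its RefSeq start site, so the Hspa5 stretch lies inside that span. Hsp90b1, which encodes the ER Hsp90 (GRP94), held 2 copies in opposite orientation, shown in 172 bases at chr10:86705510-86705681, - strand.
Hsp90b1: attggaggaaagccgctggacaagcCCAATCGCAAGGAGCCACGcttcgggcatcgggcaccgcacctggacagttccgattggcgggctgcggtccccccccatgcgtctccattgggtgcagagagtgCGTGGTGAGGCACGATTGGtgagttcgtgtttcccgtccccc

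The C/EBP-ATF response element, spelled TGATGNAA and bound by ATF4 with a C/EBP partner, was found on either strand in 7 members (17.5%), against 4.51% of all genes. These were Asns, Pycr1, Chac1, Fgf21, Vldlr, Nupr1 and Herpud1. It was in 2 of the 8 amino acid genes with a window and in 3 of 7 other ATF4-linked genes. None of the 12 chaperones with a window held it, none of the 8 amino acid genes with a window held the ERSE, and no member held both. Capitals mark the element in the same way.
Asns: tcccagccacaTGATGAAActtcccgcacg
Pycr1: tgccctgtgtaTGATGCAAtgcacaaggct
Chac1: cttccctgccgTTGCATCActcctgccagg
Fgf21: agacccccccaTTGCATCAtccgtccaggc
Vldlr: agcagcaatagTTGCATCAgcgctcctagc
They lie at chr6:7693214-7693243, - strand, chr11:120643833-120643862, - strand, chr2:119351038-119351067, + strand, chr7:45615611-45615640, - strand, and chr19:27216809-27216838, + strand, upstream of the RefSeq start site. The stretches of Asns and Vldlr lie inside the GENCODE spans of these genes, which begin before the RefSeq start sites. A match describes the letters only.

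With siCop1 the amino acid genes fell together. All 9 of them were lower than in siCTRL cells in each of the 4 settings (DMSO or KL001, without or with Dexa), which share no library, and the median log2 change was -0.43, -0.49, -0.44 and -0.45 in DMSO without Dexa, DMSO with Dexa, KL001 without Dexa and KL001 with Dexa. The median of all genes tested lay between -0.01 and 0.00. Over all 44 members, 36, 34, 33 and 30 passed the test in these 4 settings, beside 29.4%, 31.1%, 32.7% and 30.1% of all genes tested. Of these members 33, 33, 32 and 28 were lower, where 16.6%, 16.7%, 18.2% and 16.3% of all genes were lower at an adjusted p under 0.05. Members higher with siCop1 numbered 3, 1, 1 and 2, beside 12.8%, 14.4%, 14.5% and 13.7% of all genes. 27 members (61.4%) were lower in all 4 settings, against 9.55% of genes tested.

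**Figure D1:**
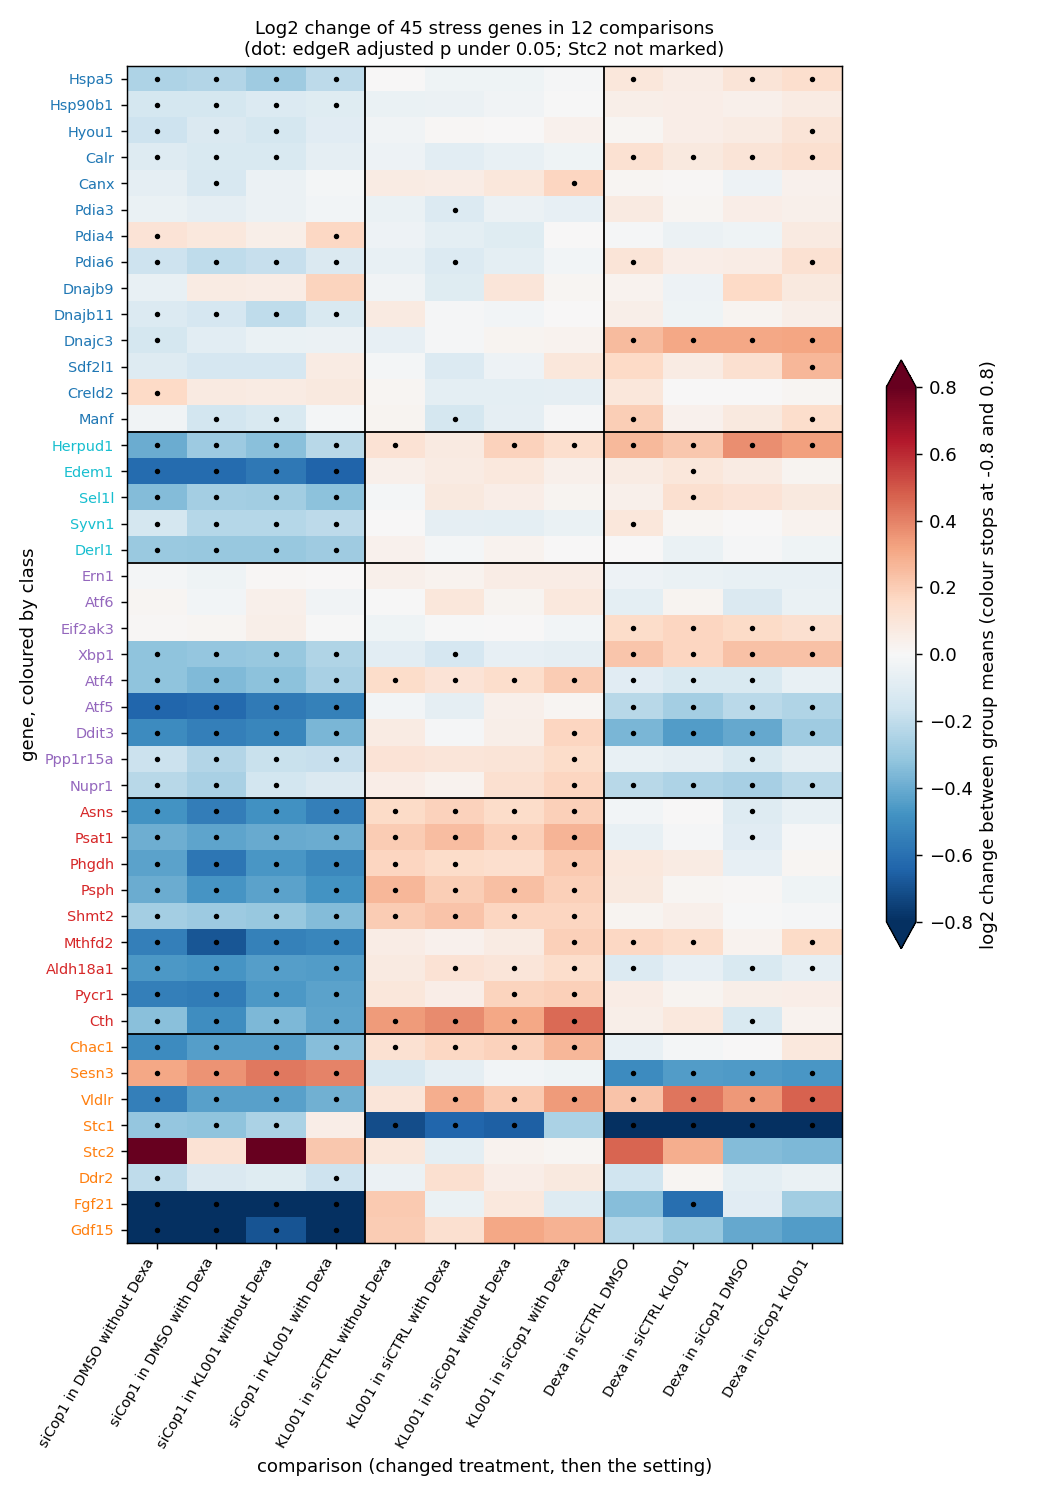
Log2 change of 45 members (lines, by class) in 12 comparisons (columns); red is higher and blue lower with the treatment named first, and a dot marks an edgeR adjusted p under 0.05 (Stc2 is not marked). The 9 amino acid genes are blue in all 4 siCop1 columns and mostly red in the 4 KL001 columns, while the 14 chaperones stay pale in both.

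Asparagine synthetase (Asns, chr6:7675169-7693254, - strand), which makes asparagine from aspartate, had 369.6, 375 and 375 CPM in the 3 siCTRL DMSO libraries and 265, 272 and 265 CPM in the 3 siCop1 DMSO libraries. With Dexa present the values were 368, 372 and 361 CPM against 253, 246 and 249.7 CPM. Each siCop1 library lay below every siCTRL library of its setting, in KL001 as well. The log2 change was -0.48 (SE 0.025, edgeR adjusted p = 5.07e-15) in DMSO without Dexa, a loss of 28.3%, and -0.56, -0.49 and -0.55 in the other 3 settings.

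Mthfd2, the mitochondrial folate enzyme that feeds one-carbon units into purine synthesis, showed the deepest single fall of the class. It fell from 267, 258 and 266 CPM to 165, 161 and 167 CPM in DMSO with Dexa (log2 -0.68, SE 0.032), and by 0.55, 0.54 and 0.52 on the log2 scale elsewhere. The serine pathway enzymes Phgdh (-0.43, -0.58, -0.47 and -0.52), Psat1 (-0.39, -0.42, -0.40 and -0.40) and Psph (-0.40, -0.47, -0.43 and -0.48) fell together on that scale, as did Shmt2, which turns serine into glycine in mitochondria (-0.27, -0.29, -0.30 and -0.35). So did the proline enzymes Aldh18a1 (-0.46, -0.48, -0.44 and -0.45) and Pycr1 (-0.55, -0.56, -0.46 and -0.43) and the cysteine enzyme cystathionine gamma-lyase, Cth (-0.33, -0.49, -0.36 and -0.42). The class thus ranged from -0.27 for Shmt2 to -0.68 for Mthfd2. For all 9 genes, every siCop1 library lay below every siCTRL library of its setting. The share of all genes tested whose libraries separate in this way was not counted.

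Atf4 mRNA itself (chr15:80255184-80257541, + strand) fell too. It had 659, 662 and 637 CPM in siCTRL DMSO and 528, 520.4 and 518 CPM in siCop1 DMSO, and the libraries did not overlap. The log2 changes were -0.32, -0.35, -0.33 and -0.26 (SE 0.029, edgeR adjusted p = 3.86e-10 in DMSO without Dexa). Its relative Atf5 fell further (-0.63, -0.63, -0.57 and -0.54), and Ddit3, the factor CHOP of terminal ER stress, by 0.50, 0.55, 0.52 and 0.37.

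Ddit3 had 117, 114 and 109 CPM in siCTRL DMSO against 81.2, 80.7 and 78.02 CPM in siCop1 DMSO (edgeR adjusted p = 4.26e-12). Its exons overlap those of Mars on the other strand, and those of Atf5 overlap Nup62 and Il4i1. In all, 14 members overlap exons of a gene on the other strand, the rest being Hsp90b1, Pdia3, Pdia6, Dnajb9, Manf, Syvn1, Eif2ak3, Ppp1r15a, Psph (with Cct6a), Shmt2 (with Ndufa4l2), Stc1 and Ddr2. Hsp90b1, Pdia4 and Manf also overlap a gene on their own strand. Whether the counting used the strand is not given, so reads of these pairs may not be told apart and the values of these members are uncertain to that extent. Ppp1r15a, which ends eIF2α phosphorylation, fell in all 4 settings (-0.17, -0.24, -0.18 and -0.18), and Nupr1 in 3 of 4, with -0.12 in KL001 with Dexa, which missed the threshold. Its call in KL001 without Dexa was lost without replicate 2 (adjusted p = 0.06) or 3 (0.0775) of siCTRL KL001 and in a fit on only the groups compared (0.069).

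Xbp1, the target of IRE1, went from 90.5, 92.1 and 87.98 CPM to 70.5, 73.2 and 72.99 CPM in DMSO without Dexa, with no overlap (log2 -0.32, SE 0.039, edgeR adjusted p = 1.65e-07), and fell by 0.31, 0.31 and 0.24 elsewhere. None of the 3 sensor genes passed the test in any setting. The log2 changes of Ern1, Atf6 and Eif2ak3 lay between -0.03 and 0.04, with overlapping libraries throughout. Of the 9 sensors and factors, 6, 6, 6 and 5 were lower and none higher.

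**Figure D2:**
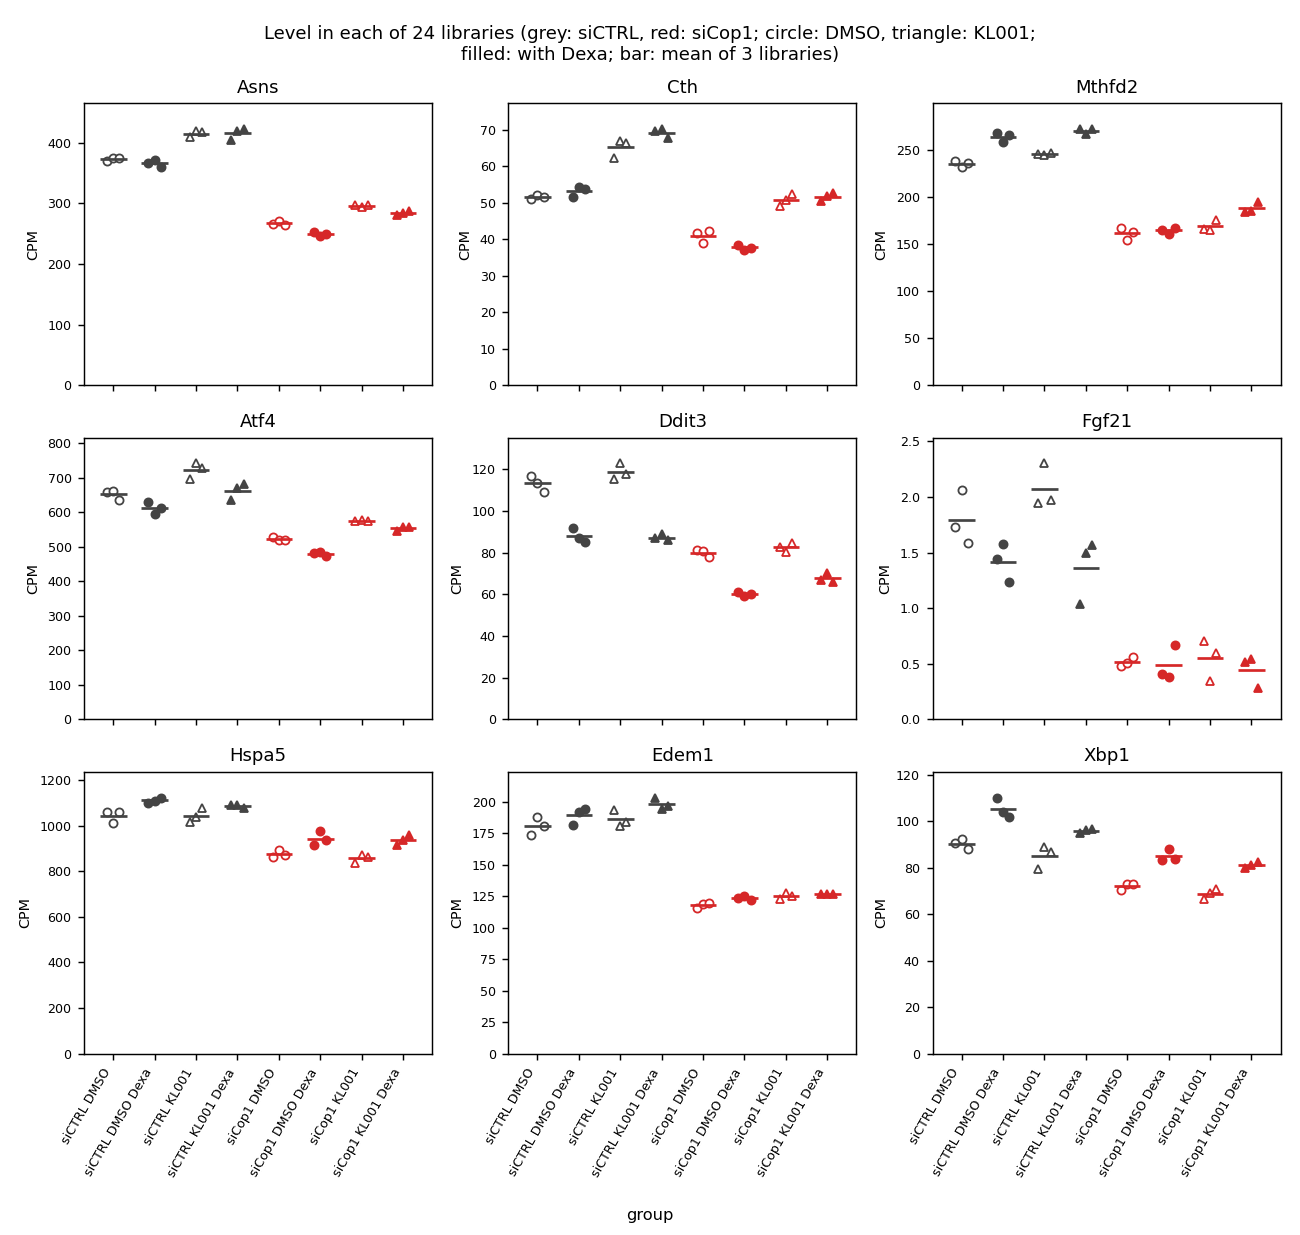
CPM of 9 members in each of the 24 libraries (y axis from 0, groups on the x axis; bars are means of 3 libraries). For Asns, Atf4, Edem1 and Fgf21 every siCop1 library (red) lies below every siCTRL library of the same treatment (grey), while Hspa5 shows a smaller gap.

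Median changes of the ER chaperones lay nearer 0 than those of the amino acid genes. Of 14 chaperones, 7, 8, 7 and 4 were lower and 2, 0, 0 and 1 higher with siCop1 in the 4 settings, with medians of -0.10, -0.13, -0.12 and -0.04 on the log2 scale. Hspa5 (chr2:34771970-34777547, + strand) had 1059, 1010.1 and 1059 CPM in siCTRL DMSO and 864, 894 and 873 CPM in siCop1 DMSO. The siCop1 libraries lay below in all 4 settings, and the log2 changes were -0.25, -0.24, -0.29 and -0.21 (SE 0.028, edgeR adjusted p = 4.66e-08 in DMSO without Dexa), the largest falls of the class.

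Hsp90b1, the disulphide isomerase Pdia6 and the co-chaperone Dnajb11 were also lower in all 4 settings, by 0.10 to 0.21 on the log2 scale. Hyou1, a nucleotide exchange factor for BiP, and Calr were lower in 3 of 4. Pdia4 rose in DMSO without Dexa (0.11) and in KL001 with Dexa (0.17), and Creld2 rose in DMSO without Dexa (0.16). The Pdia4 and Creld2 calls in DMSO without Dexa were lost without replicate 3 of siCop1 DMSO (adjusted p = 0.054 and 0.0787), Pdia4 also without replicate 2 of siCop1 DMSO (0.0656) or 1 of siCTRL DMSO (0.173), and Creld2 without replicate 2 (0.0687) or 3 (0.0595) of siCTRL DMSO. Several chaperone calls near the threshold were lost in the same way, including Dnajb11 in DMSO without Dexa (up to 0.182, without replicate 1 of siCTRL DMSO; also without replicate 3 of that group or replicate 1 or 3 of siCop1 DMSO) and in KL001 with Dexa (0.0942 without replicate 1 of siCTRL KL001 Dexa, 0.0536 without replicate 3 of siCop1 KL001 Dexa), and Hyou1 in DMSO with Dexa (0.0681 to 0.0774, without replicate 2 of siCop1 DMSO Dexa or replicate 2 or 3 of siCTRL DMSO Dexa). Hsp90b1 in KL001 without Dexa missed the threshold in a fit on only the groups compared (0.0798). Dnajb9, Sdf2l1 and Pdia3 passed the test in none of the settings. Genes with an ERSE thus included lower ones such as Hspa5 and the higher Creld2. The median log2 change over the 8 ERSE holders tested was -0.14 in DMSO without Dexa, and over the 7 holders of the C/EBP-ATF element -0.51. The degradation genes and the amino acid genes whose windows lack that element fell too.

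ER-associated degradation genes, which pull misfolded proteins back to the cytosol, fell throughout. All 5 tested were lower in all 4 settings, with medians of -0.35, -0.29, -0.31 and -0.29. Edem1, which marks misfolded glycoproteins by trimming mannose, had 174, 188 and 181 CPM in siCTRL DMSO and 116, 119 and 119 CPM in siCop1 DMSO. Its libraries were far apart in every setting, with log2 changes of -0.62, -0.62, -0.57 and -0.64 (SE 0.034, edgeR adjusted p = 1.64e-14 in DMSO without Dexa). Herpud1 fell by 0.40, 0.29, 0.33 and 0.22, the ligase scaffold Sel1l by 0.35, 0.28, 0.28 and 0.33, the channel protein Derl1 by 0.30, 0.31, 0.31 and 0.29 and the ligase Syvn1 by 0.14, 0.23, 0.23 and 0.21.

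Fgf21 (chr7:45613886-45615490, - strand), a hormone of starvation and a classic ATF4 target, showed the largest fall of all members, at a low level. It had 1.73, 2.06 and 1.59 CPM in siCTRL DMSO and 0.484, 0.505 and 0.564 CPM in siCop1 DMSO. No siCop1 library reached any siCTRL library, and the log2 changes were -1.78, -1.53, -1.91 and -1.58 (SE 0.25, edgeR adjusted p = 2.13e-06 in DMSO without Dexa). Gdf15, a cytokine that lowers appetite, fell by 0.80, 0.98, 0.69 and 0.83, from 2.81, 2.31 and 3.06 CPM to 1.90, 1.48 and 1.33 CPM in DMSO without Dexa.

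Chac1, which degrades glutathione, fell by 0.51, 0.44, 0.44 and 0.34 and the lipoprotein receptor Vldlr by 0.55, 0.44, 0.43 and 0.39. Sesn3 went the other way. This inhibitor of mTORC1, known as a FOXO target, rose from 179, 199 and 199.7 CPM to 237, 235 and 246 CPM in DMSO without Dexa, and by 0.31, 0.36, 0.42 and 0.40 on the log2 scale over the settings (edgeR adjusted p = 0.000472 in the first), with no overlap. Stc1 fell in 3 settings (-0.31, -0.32 and -0.25), with overlapping libraries in the last of these, and was at 0.06 in KL001 with Dexa. Its call in DMSO with Dexa was lost without replicate 1 of siCTRL DMSO Dexa (adjusted p = 0.098) or of siCop1 DMSO Dexa (0.0723), and that in KL001 without Dexa without replicate 3 of siCTRL KL001 (0.0682) or of siCop1 KL001 (0.12). The collagen receptor Ddr2 was lower in 2 settings (-0.20 in DMSO without Dexa, -0.17 in KL001 with Dexa), calls lost without replicate 2 (adjusted p = 0.0589) or 3 (0.0867) of siCTRL DMSO, and without replicate 1 or 2 of siCTRL KL001 Dexa or of siCop1 KL001 Dexa (0.0659 to 0.12).

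Genes of the same pathways outside the list gave these counts. Of 38 other ATF4-pathway genes tested, 28, 29, 29 and 29 were lower with siCop1 and 3, 2, 3 and 2 higher, and 27 were lower in all 4 settings. They include the leucine transporter Slc7a5 (log2 -0.85 in DMSO without Dexa), the pseudokinase Trib3 (-0.83) and the glutamine transporter Slc1a5 (-0.73). Of 43 other ER folding, translocation and degradation genes, 16, 20, 19 and 19 were lower and 6, 4, 6 and 2 higher, with medians of -0.05, -0.09, -0.11 and -0.08. Of 11 cytosolic heat shock genes, 2, 4, 4 and 4 were lower and 3, 1, 2 and 2 higher.

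**Figure D3:**
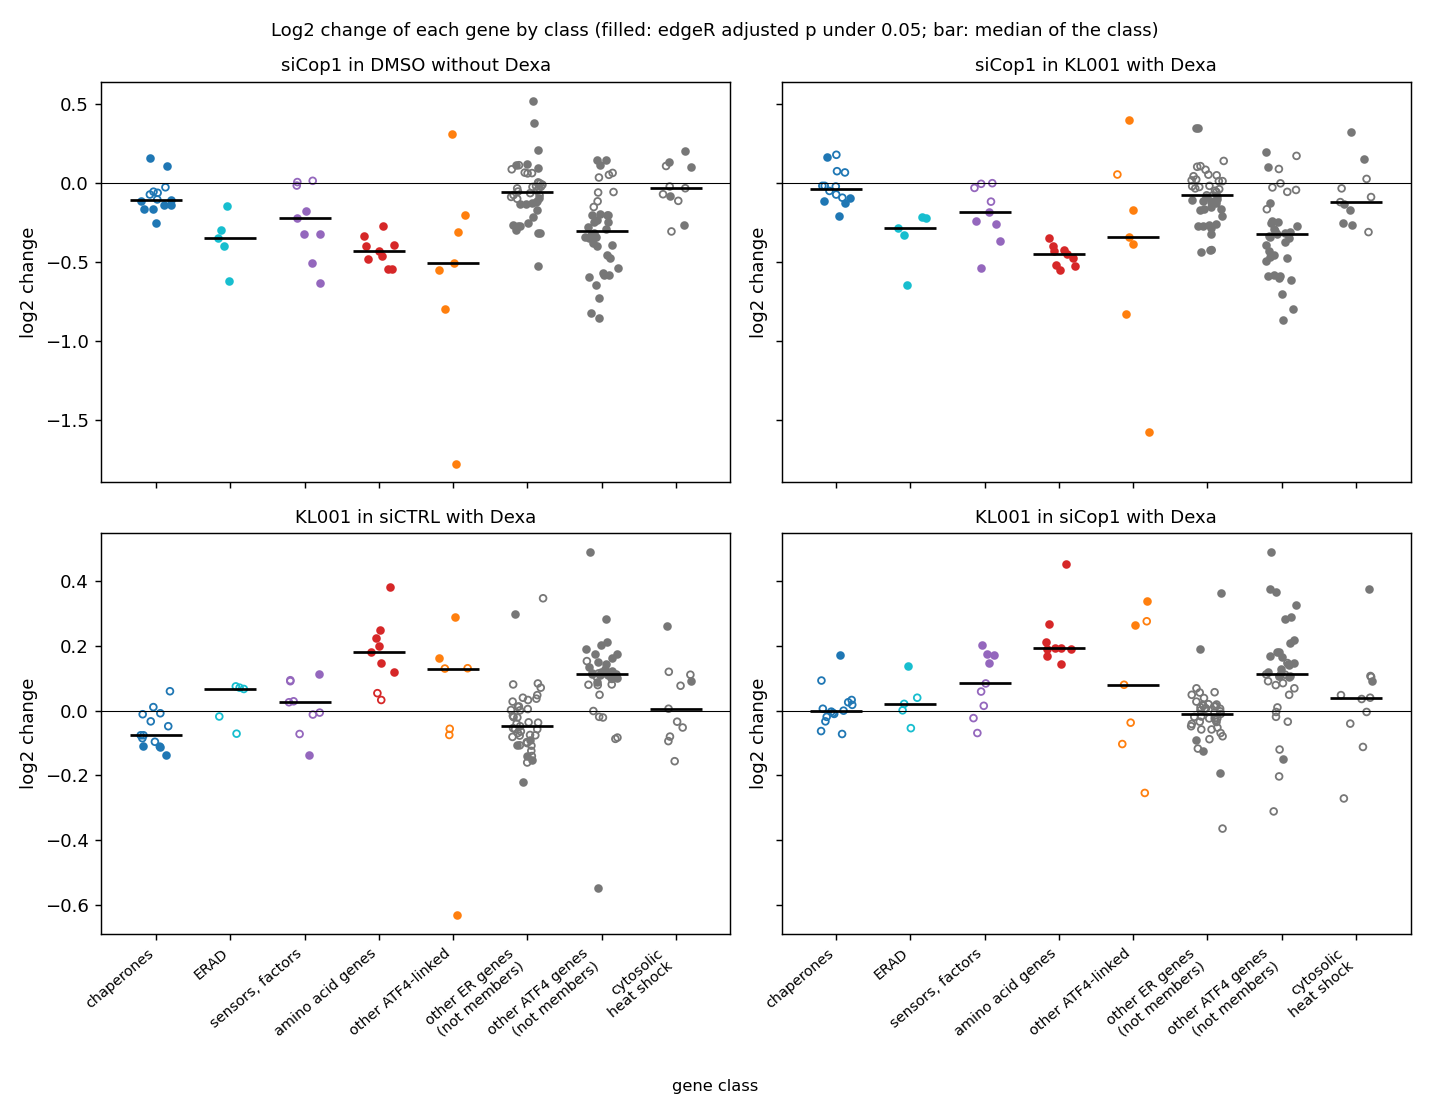
Log2 change of each tested gene (points, filled where the edgeR adjusted p was under 0.05) by class, with the class median as a bar, in 2 siCop1 and 2 KL001 comparisons. The amino acid genes and the ATF4-pathway genes outside the list mostly sit below 0 with siCop1 and above 0 with KL001, whereas the chaperones and the ER genes outside the list sit closer to 0 and the degradation genes fall with siCop1.

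The summed level of the 9 fibroblast markers was also lower with siCop1, at 43500 to 45200 CPM against 50300 to 53600 CPM in DMSO without Dexa, and its part in these results was not tested. In bulk RNA, fewer cells of a type and less RNA per cell cannot be told apart. Heart muscle transcripts differed between the siRNA groups as given above. With the 6 libraries that hold them left out together, a choice made after seeing the data, all 9 amino acid genes were still lower in the 3 settings that could be fitted, and 32, 32 and 29 of 44 members were lower in DMSO with Dexa, KL001 without Dexa and KL001 with Dexa.

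KL001 moved fewer genes, and among the members it raised mainly the amino acid genes. Of these 9, 6, 7, 7 and 9 were higher with KL001 in siCTRL without Dexa, siCTRL with Dexa, siCop1 without Dexa and siCop1 with Dexa, and none was lower. The median log2 changes were 0.17, 0.18, 0.17 and 0.19, beside a median over all genes of 0.00 in each. Over the 44 members, 10, 15, 12 and 17 passed the test, beside 6.73%, 10.6%, 4.09% and 5.46% of all genes. Of these 9, 10, 11 and 17 were higher, where 3.22%, 4.98%, 1.77% and 2.5% of all genes tested were higher, and 1, 5, 1 and 0 were lower, where 3.51%, 5.58%, 2.32% and 2.97% of all genes were. 7 members (15.9%) were higher in all 4 settings, which again share no library, against 0.751% of genes: Asns, Psat1, Psph, Shmt2, Cth, Atf4 and Chac1. In fits on only the groups compared, 3 of them (Psat1, Psph and Cth) passed in all 4.

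Cth rose most. It had 51.2, 52.1 and 51.6 CPM in siCTRL DMSO and 62.4, 67.1 and 66.5 CPM in siCTRL KL001, and in siCop1 cells with Dexa 38.5, 37.2 and 37.7 CPM without and 50.5, 51.9 and 52.8 CPM with KL001. The KL001 libraries lay above in all 4 settings, by 0.34, 0.38, 0.31 and 0.45 on the log2 scale (SE 0.038, edgeR adjusted p = 4.22e-07 in siCTRL without Dexa). Psat1, the serine pathway transaminase, rose by 0.20, 0.25, 0.19 and 0.27 and Psph, which releases serine, by 0.27, 0.20, 0.24 and 0.19. The call for Psph in siCop1 with Dexa was lost without replicate 1 of siCop1 DMSO Dexa (adjusted p = 0.0751) or replicate 2 of siCop1 KL001 Dexa (0.0701).

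Asns went from 369.6, 375 and 375 CPM in siCTRL DMSO to 409.5, 419.6 and 417 CPM in siCTRL KL001, a log2 rise of 0.16 (SE 0.025, edgeR adjusted p = 0.000137), with no overlap there or in the other settings. Shmt2 rose by 0.21, 0.23, 0.17 and 0.17. Phgdh, Aldh18a1, Pycr1 and Mthfd2 passed the test in 3, 3, 2 and 1 of the 4 settings, all upward. The Phgdh call in siCTRL without Dexa was lost without replicate 3 of siCTRL DMSO (adjusted p = 0.06) or 2 of siCTRL KL001 (0.0882), and with Dexa without replicate 3 of siCTRL DMSO Dexa (0.104) or 2 (0.0594) or 3 (0.149) of siCTRL KL001 Dexa. That of Aldh18a1 in siCop1 without Dexa was lost without any 1 of the 6 libraries compared (0.0817 to 0.138).

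Atf4 had 659, 662 and 637 CPM in siCTRL DMSO and 695, 742 and 729 CPM in siCTRL KL001. The KL001 libraries were higher in every setting, by 0.15, 0.11, 0.14 and 0.20 on the log2 scale (edgeR adjusted p = 0.00127, 0.00948, 0.00227 and 1.57e-05). In siCTRL with Dexa this call was lost without replicate 2 of siCTRL DMSO Dexa (adjusted p = 0.0662) and without replicate 2 (0.0549) or 3 (0.0862) of siCTRL KL001 Dexa, and without the libraries that hold heart muscle transcripts (0.118). Chac1 rose by 0.12, 0.16, 0.19 and 0.26. Its call in siCTRL without Dexa was lost without a filter on low counts (adjusted p = 0.0627), in a fit on only the groups compared (0.288), and without any 1 of the siCTRL DMSO libraries or replicate 2 or 3 of siCTRL KL001 (0.0602 to 0.217). In siCop1 cells with Dexa, Ddit3 (0.17), Ppp1r15a (0.15) and Nupr1 (0.17) rose as well, though all 3 missed the threshold without replicate 2 of siCop1 KL001 Dexa (adjusted p = 0.0567, 0.191 and 0.0909). Ppp1r15a also missed it with DESeq2 (0.0615), without replicate 3 of that group (0.12) and without any 1 of the siCop1 DMSO Dexa libraries (0.0522 to 0.182), and Nupr1 without replicate 3 of siCop1 KL001 Dexa (0.0693) or of siCop1 DMSO Dexa (0.177).

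Few chaperones passed the test with KL001: 0, 0, 0 and 1 of 14 were higher and 0, 3, 0 and 0 lower. The shares called were 0%, 21.4%, 0% and 7.14%, beside 6.73%, 10.6%, 4.09% and 5.46% of all genes tested. In siCTRL with Dexa and siCop1 with Dexa the chaperone share was thus not below that of all genes. The 3 lower genes in siCTRL with Dexa were Pdia3 (-0.11), Pdia6 (-0.11) and Manf (-0.14), and the higher gene in siCop1 with Dexa was calnexin, Canx (0.17). With the replicate block in a fit on only the groups compared, none of the 3 lower calls was kept (adjusted p = 0.0892, 0.137 and 0.0961). Leaving out replicate 1 of siCTRL DMSO Dexa also ended those of Pdia6 (0.121) and Manf (0.255), as did leaving out replicate 1 or 2 of siCTRL KL001 Dexa (0.0656 to 0.108), and leaving out replicate 3 of that group ended those of Pdia3 (0.0507) and Manf (0.107). Hspa5 was at 0.00, -0.03, -0.04 and -0.01, none past the threshold. Xbp1 was lower in siCTRL with Dexa (-0.14, edgeR adjusted p = 0.019), a call lost without replicate 1 of siCTRL DMSO Dexa (0.133) or without any of the 3 siCTRL KL001 Dexa libraries (0.0509 to 0.0718). Herpud1, the degradation gene that holds a C/EBP-ATF element, was higher in 3 of 4 settings (0.12 in siCTRL and 0.18 in siCop1 without Dexa, 0.14 in siCop1 with Dexa). The first of these calls was lost without a filter on low counts (adjusted p = 0.0625), in a fit on only the groups compared (0.251), and without replicate 2 of siCTRL DMSO (0.0502) or of siCTRL KL001 (0.0627).

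Stc1, a secreted glycoprotein hormone, fell most with KL001. It had 24.7, 26.9 and 26.5 CPM in siCTRL DMSO and 16.3, 14.8 and 16.6 CPM in siCTRL KL001, and fell by 0.71, 0.63 and 0.65 on the log2 scale in 3 settings without overlap (edgeR adjusted p = 7.88e-08 in siCTRL without Dexa). In siCop1 with Dexa it was at -0.25 and the libraries overlapped. Vldlr rose with KL001 in siCTRL with Dexa (0.29) and in siCop1 without (0.21) and with Dexa (0.34).

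Among the 38 other ATF4-pathway genes, 20, 23, 14 and 22 were higher with KL001 and 0, 1, 2 and 1 lower, with 10 higher in all 4 settings, among them Trib3, the cystine transporter Slc7a11 and the transfer RNA synthetases Cars, Lars, Nars and Sars. In a fit on only the groups compared the 20 in siCTRL without Dexa became 1, and with the replicate block in such a fit the 23 in siCTRL with Dexa became 9. In fits on only the groups compared 1 gene of the list was higher in all 4 settings in place of 10. Of the 43 other ER genes, 1, 1, 3 and 2 were higher and 2, 5, 3 and 3 lower. The fibroblast marker sum was lower with KL001 too (43600 to 48100 CPM against 50300 to 53600 CPM in siCTRL without Dexa), and its part was not tested. The KL001 counts in siCTRL depended on the fit. A fit on only the 6 libraries compared called 4 of 44 members (3 of them amino acid genes) in place of 10 without Dexa, beside 1.62% of all genes in that fit, where Atf4 (adjusted p = 0.12) and Asns (0.0787) missed the threshold. With Dexa, where same-numbered libraries deviated together, that fit with the replicate number as a block called 7 (6 higher, 1 lower) in place of 15, beside 5.83% of all genes, with 5 amino acid genes higher, and Atf4 (0.12) and Xbp1 (0.104) missed the threshold.

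The genes lower with siCop1 and those higher with KL001 were set side by side in comparisons that share no library. Of the 9 amino acid genes, 7 fell with siCop1 in the DMSO setting without Dexa and were higher with KL001 in siCTRL with Dexa. Over the 44 members 10 were (30.3% of the 33 lower and 100% of the 10 higher), and over all genes tested 211 were (8.61% of the lower and 28.7% of the higher). In the other such pair, siCop1 in DMSO with Dexa and KL001 in siCTRL without Dexa, the counts were 6 of 9 amino acid genes, 9 of 44 members (20.5%) and 158 of all genes (1.07%). The ATF4-pathway genes outside the list gave 21 and 19 of 38, the chaperones 0 and 0 of 14. These overlaps rest on the KL001 calls in siCTRL. All 9 amino acid genes were lower with siCop1, so their overlap equals their count higher with KL001. With 33 of 44 members lower, most of those higher with KL001 would be among them in any case. For these genes the overlap thus adds nothing to the separate counts. In fits on only the groups compared, with the replicate block for KL001 with Dexa, the first pair gave 5 of 9 amino acid genes, 6 of 44 members and 8 of 38 other ATF4-pathway genes. In fits on only the groups compared the second pair gave 3, 3 and 1.

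**Figure D4:**
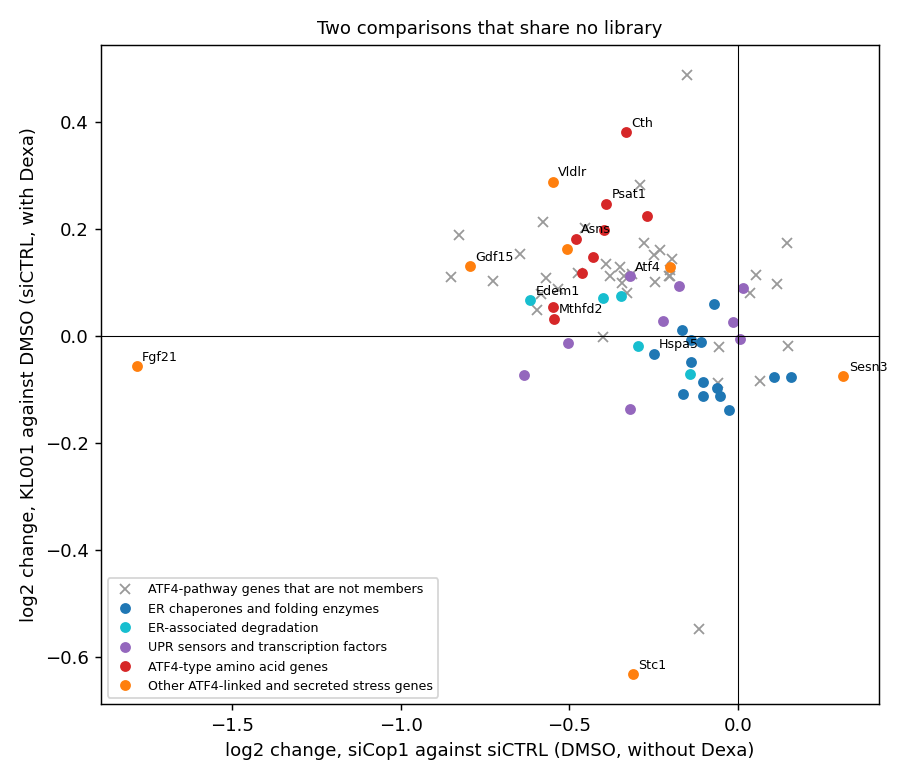
Log2 change with siCop1 (x axis, DMSO without Dexa) against log2 change with KL001 (y axis, siCTRL with Dexa) for 44 members by class (circles) and 38 other ATF4-pathway genes (crosses). The 9 amino acid genes lie in the upper left, while the 14 chaperones lie nearer 0 and mostly below the horizontal line.

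Dexa changed members in both directions. Of 44 members, 18, 16, 18 and 18 passed the test in siCTRL DMSO, siCTRL KL001, siCop1 DMSO and siCop1 KL001, beside 26.8%, 26.8%, 23.7% and 24.5% of all genes tested. 11, 9, 7 and 12 were higher (12.7%, 12.7%, 12% and 12.1% of all genes) and 7, 7, 11 and 6 lower (14.1%, 14%, 11.6% and 12.4%). Higher in all 4 settings were Calr, Dnajc3, Herpud1, Eif2ak3, Xbp1 and Vldlr (13.6% of members, against 7.85% of genes tested), and lower in all 4 were Atf5, Ddit3, Nupr1, Sesn3 and Stc1 (11.4% against 7.31%). The Calr call in siCTRL KL001, where same-numbered libraries deviated together, was lost with the replicate block (adjusted p = 0.0517), without a filter on low counts (0.0681), and without replicate 1 or 3 of siCTRL KL001 or replicate 1 or 2 of siCTRL KL001 Dexa (0.0664 to 0.144). The Eif2ak3 calls were lost in siCTRL DMSO in a fit on only the groups compared (0.0587) or without replicate 2 of either group (0.06 and 0.0699), in siCop1 DMSO without replicate 2 of the group without Dexa (0.0628), and in siCop1 KL001 with DESeq2 (0.0582), without a filter (0.0975), or without replicate 3 of siCop1 KL001 or any 1 of the siCop1 KL001 Dexa libraries (0.054 to 0.291). Dnajc3, Herpud1, Xbp1 and Vldlr were higher in all 4 settings in each of the 5 alternatives that refit all settings.

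Dnajc3, an inhibitor of PERK and BiP co-chaperone, rose by 0.25, 0.31, 0.31 and 0.32 on the log2 scale, Herpud1 by 0.26, 0.22, 0.37 and 0.33 and PERK itself (Eif2ak3) by 0.14, 0.17, 0.15 and 0.13. Xbp1 went from 90.5, 92.1 and 87.98 CPM to 110.2, 104 and 102 CPM in siCTRL DMSO and from 70.5, 73.2 and 72.99 CPM to 83.3, 87.9 and 83.9 CPM in siCop1 DMSO, with no overlap (log2 0.22, 0.17, 0.24 and 0.24 over the 4 settings, edgeR adjusted p = 3.09e-05 in the first). Of the 14 chaperones 5, 2, 3 and 7 were higher and none lower. The shares higher were 35.7%, 14.3%, 21.4% and 50%, beside 12.7%, 12.7%, 12% and 12.1% of all genes, so that in siCTRL KL001 was near the share of all genes. Under the alternatives 3 to 7, 1 to 3, 2 to 7 and 6 to 8 chaperones were higher. Hspa5 was higher in 3 settings (0.09 in siCTRL DMSO, 0.10 in siCop1 DMSO, 0.13 in siCop1 KL001). The call in siCTRL DMSO was lost without replicate 2 of that group (adjusted p = 0.0791) and in a fit on only the groups compared (0.0521), and that in siCop1 DMSO without replicate 2 of siCop1 DMSO Dexa (0.0784).

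Several factors of the ATF4 arm were lower with Dexa, but the arm as a whole had no shared direction. Of the 38 other ATF4-pathway genes, 6, 8, 6 and 8 were higher with Dexa and 9, 6, 12 and 9 lower. In all 4 settings 6 of them (15.8%) were higher and 6 (15.8%) lower, against 7.85% and 7.31% of genes tested. Ddit3 had 117, 114 and 109 CPM in siCTRL DMSO and 91.9, 87.01 and 85.1 CPM with Dexa, and 81.2, 80.7 and 78.02 CPM against 61.2, 59.3 and 59.98 CPM in siCop1 DMSO. All libraries with Dexa lay below, by 0.37, 0.44, 0.41 and 0.29 on the log2 scale (edgeR adjusted p = 1.97e-09 in siCTRL DMSO). Atf5 fell by 0.23, 0.27, 0.22 and 0.24 and Nupr1 by 0.22, 0.25, 0.26 and 0.22. Atf4 was lower in 3 settings (-0.09, -0.12 and -0.12). The call in siCTRL DMSO was lost without replicate 1 or 2 of siCTRL DMSO or replicate 2 or 3 of siCTRL DMSO Dexa (adjusted p = 0.0554 to 0.199). It was also lost without a filter on low counts (0.1) and in a fit on only the groups compared (0.106). The Atf4 call in siCTRL KL001 was lost in such a fit (0.0609).

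The amino acid genes had no shared direction with Dexa: 1, 1, 0 and 1 were higher and 1, 0, 4 and 1 lower, with medians of 0.04, 0.02, -0.06 and -0.01. Mthfd2 rose in siCTRL DMSO, siCTRL KL001 and siCop1 KL001 (0.17, 0.14 and 0.16). Aldh18a1 was lower in siCTRL DMSO, siCop1 DMSO and siCop1 KL001 (-0.11, -0.12 and -0.08), the last a call lost without any of the siCop1 KL001 libraries or without replicate 1 or 2 of siCop1 KL001 Dexa (adjusted p = 0.0603 to 0.271). That call was also lost without a filter on low counts (0.134) and in a fit on only the groups compared (0.0588). Asns (-0.10), Psat1 (-0.09) and Cth (-0.12) were lower in siCop1 DMSO, where Psat1 missed the threshold without a filter on low counts (adjusted p = 0.0502). The call for Cth was lost without either replicate 1 or 3 of siCop1 DMSO or replicate 2 or 3 of siCop1 DMSO Dexa (adjusted p = 0.0889 to 0.156). It was also lost with DESeq2 (0.0573), without a filter on low counts (0.107) and without the libraries that hold heart muscle transcripts (0.0509). Sesn3 fell by 0.50, 0.45, 0.45 and 0.47 and Vldlr rose by 0.23, 0.43, 0.34 and 0.47. Fgf21 was lower in siCTRL KL001 (-0.60, edgeR adjusted p = 0.0377), a call lost with DESeq2 (adjusted p = 0.0912) and on leaving out replicate 2 or 3 of siCTRL KL001 or replicate 1 or 2 of siCTRL KL001 Dexa (0.056 to 0.211). That call was also lost without a filter on low counts (0.0758) and without the libraries that hold heart muscle transcripts (0.136).

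The stanniocalcins differed from each other. Stc1 had 24.7, 26.9 and 26.5 CPM in siCTRL DMSO and 9.77, 8.16 and 8.37 CPM with Dexa, and 19.6, 20.6 and 22.7 CPM against 6.39, 7.71 and 6.94 CPM in siCop1 DMSO. Every library with Dexa lay under every library without it, and the log2 changes were -1.57, -1.49, -1.58 and -1.18 (SE 0.081, edgeR adjusted p = 1.18e-15 in siCTRL DMSO). This was the largest Dexa effect among the members tested.

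Stc2 (chr11:31357307-31370074, - strand), a secreted relative of Stc1 that is known to rise in ER stress, had 23.8, 24.5 and 21.9 CPM in siCTRL DMSO and 33.4, 31.3 and 32.2 CPM in siCTRL DMSO Dexa. In siCTRL KL001 it had 25.2, 25.5 and 24.2 CPM without and 29.8, 31.6 and 30.2 CPM with Dexa. All 6 control libraries with Dexa thus lay above the 6 without it. In siCop1 DMSO the values were 45.2, 41.6 and 47.1 CPM without and 33.8, 36.6 and 34.7 CPM with Dexa, and in siCop1 KL001 46.2, 45.5 and 44.9 CPM without and 37.7, 33.9 and 34.96 CPM with Dexa. Here the 6 libraries with Dexa lay below the 6 without it.

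As log2 changes with Dexa these are 0.47 and 0.29 in the siCTRL settings and -0.35 and -0.36 in the siCop1 settings. The siCop1 difference was 0.93 in DMSO and 0.87 in KL001 without Dexa, and 0.12 and 0.22 with it. Without Dexa the siCop1 groups had means of 44.6 ± 2.80 and 45.5 ± 0.669 CPM (SD, n = 3), and with Dexa 35.03 ± 1.46 and 35.5 ± 1.94 CPM, closer to the 32.3 ± 1.08 and 30.6 ± 0.922 CPM of the siCTRL groups. The gene was chosen for this pattern, so it carries no test. KL001 effects on Stc2, which the choice did not use, were 0.09, -0.08, 0.03 and 0.02 with overlapping libraries in all 4 settings (edgeR adjusted p = 0.382 to 0.922).

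**Figure D5:**
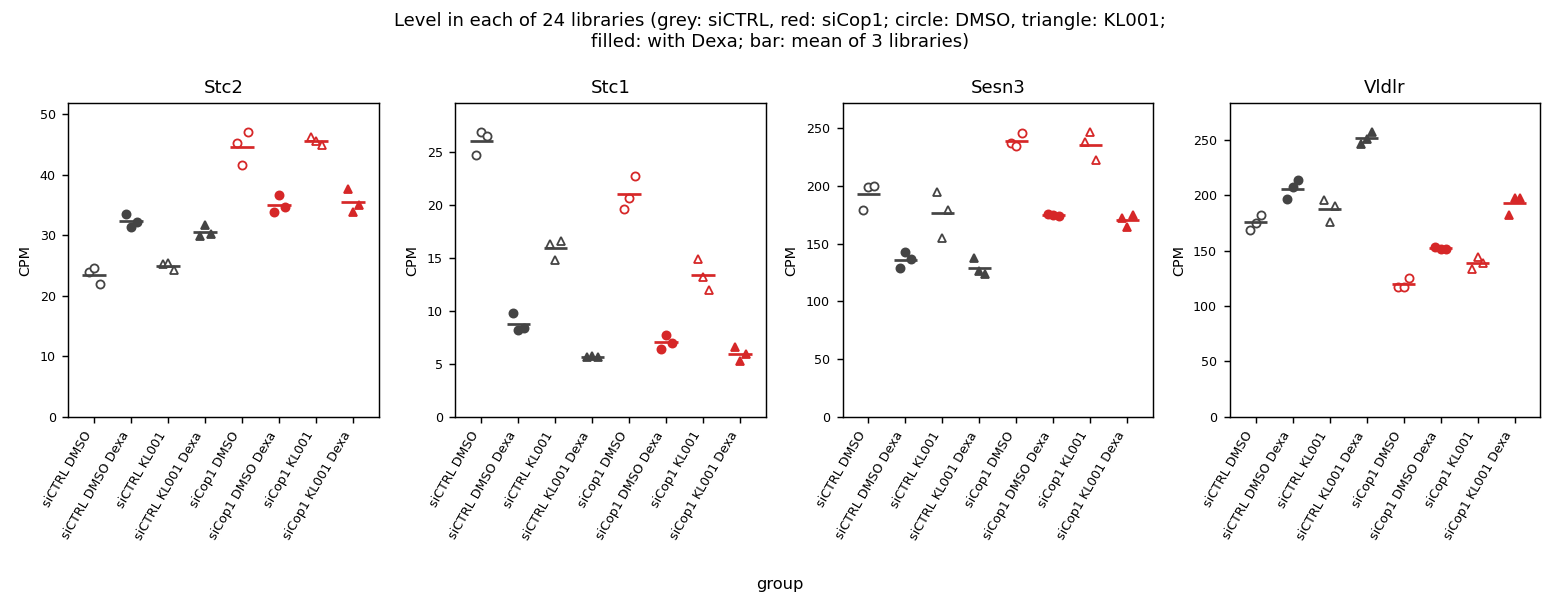
CPM of Stc2, Stc1, Sesn3 and Vldlr in each of the 24 libraries (y axis from 0, groups on the x axis; bars are means of 3 libraries). Stc2 goes up with Dexa in the siCTRL groups and down in the siCop1 groups, whereas Stc1 and Sesn3 go down and Vldlr goes up with Dexa in all of them.

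Among the 44 members other than Stc2, which carries no test, none had a Dexa effect called different between siCTRL and siCop1 cells. The difference between the Dexa effects with and without siCop1, taken as an interaction term, passed the threshold for 0 of 44 members in DMSO and 0 in KL001 by edgeR and by DESeq2, beside 0.67% and 0.562% of all genes tested by edgeR. By edgeR 5 and 5 members had an unadjusted p under 0.05, beside 1123 and 1133 of the 14772 genes tested. The smallest adjusted p among members was 0.28 and 0.271. In DMSO 4 of the 5 were amino acid genes, and all 9 genes of that class had a term below 0 (-0.16 to -0.01). In KL001 0 amino acid genes had such a p, with 6 terms below 0 and 3 above. The terms for siCop1 with KL001 (without and with Dexa) and for KL001 with Dexa (in siCTRL and siCop1) also gave 0 of 44 each by both tools, beside 0%, 0.0677%, 0% and 0.0677% of all genes. There 0, 10, 3 and 7 members had an unadjusted edgeR p under 0.05, beside 982, 1023, 888 and 670 of the 14772 genes tested. The smallest adjusted p among members was 0.765, 0.264, 0.554 and 0.749. The largest term in size among members was 0.40 on the log2 scale, and a p that misses the threshold does not show that the effects were alike.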

How the data were processed

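Raw gene-level read counts, deposited by the authors, covered 24 libraries of wild-type mouse embryonic fibroblasts, made with a stranded poly(A) kit and single reads of 50 bases, per the labels' protocols. The submitters' processing notes name bcl2fastq 1.8.4, STAR 2.4.5a, featureCounts of Subread 1.4.6-p3, Picard 1.126 and DESeq2, with GRCm38 and mm10. The annotation, strand use and handling of multi-mapping reads in the counting were not given in the sources used here. A deposited table of normalised values was not used, and the count table had 0 columns of other samples.

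Counts were analysed in R 4.3.3 with edgeR 4.0.16. Genes passing filterByExpr (minimum count 10, minimum total 15) were scaled by TMM and fitted by the quasi-likelihood test with 1 mean per group over all 24 libraries, and p-values were adjusted by Benjamini-Hochberg over all 14772 genes, two-sided, with calls at an adjusted p under 0.05. The common biological coefficient of variation was 3.71%. Replicate pairs were never identical (24 compared). Their chi-square per degree of freedom ran from 1.58 in siCop1 DMSO Dexa to 9.26 in siCTRL KL001, so the spread was unequal between groups. The pooled estimate can therefore understate the spread in groups such as siCTRL KL001. Same-numbered libraries deviated together (every correlation over 0.1) in 2 of 12 comparisons, Dexa in siCTRL KL001 and KL001 in siCTRL with Dexa. The script was tested on simulated data. DESeq2 1.42.0, other fits and filters, a replicate block and leaving out each library were tried as alternatives.

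CPM are counts divided by the TMM-scaled library size. Exon lengths and positions came from GENCODE vM21, and promoter windows from RefSeq. Values per library are given for Stc2, for Hspa5, Xbp1, Atf4, Ddit3 and Asns, and for the 3 members of largest log2 change among those called in each comparison with a mean of at least 1 CPM. Members and lists were chosen with earlier results of these data known.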

Additional observations from a re-analysis of the deposited data

Results flagged for a closer look

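The change of Stc2 with Dexa had opposite signs in siCTRL and siCop1 cells. In DMSO every library with Dexa was higher than every library without it in siCTRL (log2 0.47) and lower in siCop1 (-0.35), a difference of -0.81. In KL001 the values were 0.29 and -0.36, a difference of -0.65. Neither difference was tested, because the gene was chosen for it.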

How the results depend on the processing

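The count of changed members stayed within 1.5 times of its value under every alternative except 2, both for KL001 in siCTRL. Without Dexa the count of 10 became 4 in a fit on only the groups compared. With Dexa the count of 15 became 7 with a replicate block in that fit, an alternative added after seeing the data. The replicate block over all 24 libraries changed no count by over 1.5 times. Over all members it ended the calls of Calr (adjusted p = 0.0517) and Edem1 (0.0515) for Dexa in siCTRL KL001, Chac1 for KL001 in siCTRL without Dexa (0.0513) and Hyou1 for Dexa in siCop1 KL001 (0.0579), and changed no other. By the check of deviations, same-numbered libraries deviated together in 2 of 12 comparisons (correlations of 0.16 to 0.46 for Dexa in siCTRL KL001 and 0.17 to 0.37 for KL001 in siCTRL with Dexa). Leaving out each library in turn gave 32 to 35, 33 to 34, 30 to 34 and 29 to 30 members changed with siCop1 (DMSO without and with Dexa, KL001 without and with Dexa), 8 to 11, 10 to 15, 11 to 12 and 13 to 17 with KL001 (siCTRL without and with Dexa, siCop1 without and with Dexa), 16 to 21, 12 to 16, 16 to 17 and 15 to 16 with Dexa (siCTRL DMSO, siCTRL KL001, siCop1 DMSO, siCop1 KL001), and 0 to 0 for each of the 6 interaction terms. Of 2287 values of 16 named genes under alternatives, 2227 kept their side of the threshold, 53 fell short and 7 passed it newly. Among values called in either fit, 0 reversed direction. Values called in neither fit were not checked for direction. The lost calls named for single genes in the Results are not a full list of losses under alternatives. Depth limits Fgf21 and Gdf15, which stayed under 4 CPM in every library.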

Other observations

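Single ER genes outside the list moved further than its chaperones with siCop1. These genes were named after their values were seen. Ero1l, the oxidase that recharges disulphide isomerases, was lower with siCop1 in DMSO without Dexa (log2 -0.52, SE 0.048, edgeR adjusted p = 5.94e-10) and in the other 3 settings, and of the 43 other ER genes it alone was higher with KL001 in all 4 settings. Its paralogue Ero1lb went the other way, higher with siCop1 in DMSO without Dexa (0.52, edgeR adjusted p = 0.021), in DMSO with Dexa (0.54, 0.0179) and in KL001 without Dexa (0.49, 0.027), and at 0.14 in KL001 with Dexa (0.587). Spcs3, a signal peptidase subunit, was higher with siCop1 in all 4 settings (0.38 in DMSO without Dexa, edgeR adjusted p = 3.42e-11). With Dexa, the translocon partner Sec63 was higher in all 4 settings (0.26 in siCTRL DMSO) and the transcription factor Creb3l1 lower in all 4 (-0.22 in siCop1 DMSO). Among the other ATF4-pathway genes, Trib3 was lower with Dexa in all 4 settings (-0.39 in siCop1 DMSO), while Cebpb was higher in all 4 (0.88 in siCTRL DMSO, edgeR adjusted p = 1.83e-05).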
